A study of Mus musculus with 18 samples.

Results

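The genes described here are the Cdkn2a locus of the mouse and related inhibitors of the cell cycle: Cdkn2a, Cdkn2b, Cdkn2c, Cdkn2d, Cdkn1b and Mtap. They are 6 of the 54532 genes in the deposited expression table, chosen by name with earlier results of these data known. All 6 were among the 17200 genes that passed the filter on low values and were tested. The data are 18 libraries of polyadenylated RNA from ES-E14TG2a, a mouse embryonic stem cell line derived from a blastocyst, from lines labelled Ctrlv2, Arf-B and Arf-C. Each of the 3 lines was sampled on days 0 and 8, which gives 6 groups of 3 replicates. The cells were grown with leukaemia inhibitory factor and serum, and pancreatic differentiation began at day 0 on Matrigel, using 20 ng/mL of activin A, followed from day 4 to day 8 by retinoic acid (5, in a unit the labels write as μM/ml) and FGF10 (10 ng/mL). The labels give the genotype wild type for all 18 libraries, the Arf lines included. How Arf-B and Arf-C were made, whether each is 1 clone and whether the replicates are separate cultures are not given in the sources used here, so the p-values measure only the spread between these libraries.

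Cdkn2a is unusual in encoding a pair of unrelated proteins from separate first exons joined to a common second exon that is read in different frames. One is p16Ink4a, which with its relatives p15Ink4b (Cdkn2b), p18Ink4c (Cdkn2c) and p19Ink4d (Cdkn2d) binds the kinases Cdk4 and Cdk6 and keeps them from phosphorylating the retinoblastoma protein. The other is p19Arf, named in the title of the study, which binds Mdm2 and so stabilises p53. Cdkn1b encodes p27Kip1, of another inhibitor family, which acts on cyclin E and cyclin A complexes with Cdk2. Mtap encodes methylthioadenosine phosphorylase, the first enzyme of the methionine salvage pathway; it is no cell cycle inhibitor but lies next to Cdkn2a and is often lost with it in tumours. Embryonic stem cells are known for a short G1 phase and low levels of Ink4 proteins.

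The values are per gene, and for Cdkn2a that matters. The table places Cdkn2a (ENSMUSG00000044303) at chr4:89274471-89294653 on the minus strand, in the mm10 assembly that the submitters' processing notes name, with a counted length of 1172 bases, which equals the union of its GENCODE vM21 exons. The first exon of p16Ink4a takes 207 of these bases (17.7%), that of p19Arf 320 (27.3%), and exons 2 and 3, which the transcripts have in common, take 645 (55%). The first exons start 12.5 kb apart. The 30 bases on either side of each junction are printed because they are what separates the transcripts, in lower case for the first exon and in capitals for exon 2.
p19Arf junction (Cdkn2a-202): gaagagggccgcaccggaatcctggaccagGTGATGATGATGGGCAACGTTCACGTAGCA
p16Ink4a junction (Cdkn2a-201): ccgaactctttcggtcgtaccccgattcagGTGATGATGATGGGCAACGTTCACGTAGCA
The first exon sides have the same base at 10 of 30 positions, and the exon 2 sides are the same stretch. Reads over exons 2 and 3 belong to either transcript, so a gene total cannot tell p19Arf from p16Ink4a, and every value of Cdkn2a below is their sum.

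The other genes are Cdkn2b (ENSMUSG00000073802, chr4:89306299-89311039, minus strand, 1390 exonic bases), Mtap (ENSMUSG00000062937, chr4:89137122-89181081, plus strand, 3226 bases) and Cdkn2c (ENSMUSG00000028551, chr4:109660876-109667189, minus strand, 2686 bases). Cdkn2d (ENSMUSG00000096472) lies at chr9:21288410-21291407 on the minus strand with 1574 bases, and Cdkn1b (ENSMUSG00000003031) at chr6:134920401-134925513 on the plus strand with 4552. Cdkn2a and Cdkn2b are 11.6 kb apart, and Mtap ends 93.4 kb before Cdkn2a. No exon of the 6 overlaps an exon of another gene in GENCODE vM21.

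Promoter windows of 200 bases, from 250 to 51 bases before a RefSeq start in GRCm38.p6, were available for all 6 genes (8 windows). Those of Cdkn2a, Cdkn2b and Cdkn1b are shown because Cdkn2a and its neighbour Cdkn2b moved by day in one direction and Cdkn1b in the other. Capitals mark the motif matches named after them, and each window is written 5′ to 3′ on the gene's strand.
Cdkn2a, before the p19Arf first exon (chr4:89294670-89294869): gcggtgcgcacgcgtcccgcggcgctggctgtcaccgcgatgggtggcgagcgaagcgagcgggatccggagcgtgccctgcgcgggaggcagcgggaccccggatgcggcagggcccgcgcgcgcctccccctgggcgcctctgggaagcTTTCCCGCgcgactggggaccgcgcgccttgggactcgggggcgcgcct
Cdkn2a, before the p16Ink4a first exon (chr4:89282243-89282442): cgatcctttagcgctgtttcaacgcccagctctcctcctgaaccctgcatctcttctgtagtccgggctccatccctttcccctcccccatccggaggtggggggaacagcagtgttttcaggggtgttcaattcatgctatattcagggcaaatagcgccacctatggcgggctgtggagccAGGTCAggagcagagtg
Cdkn2b (chr4:89311083-89311282): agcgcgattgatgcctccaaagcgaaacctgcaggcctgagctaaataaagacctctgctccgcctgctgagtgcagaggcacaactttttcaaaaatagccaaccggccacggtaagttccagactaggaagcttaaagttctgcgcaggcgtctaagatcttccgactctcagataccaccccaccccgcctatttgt
Cdkn1b (chr6:134920151-134920350): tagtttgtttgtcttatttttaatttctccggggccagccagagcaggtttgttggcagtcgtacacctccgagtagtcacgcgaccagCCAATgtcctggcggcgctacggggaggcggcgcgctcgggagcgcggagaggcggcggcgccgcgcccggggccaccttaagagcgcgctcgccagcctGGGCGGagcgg
The window before the p19Arf exon was 79% G and C with 34 CpG dinucleotides, more than in 99.2% of the 32851 windows of the table. The window before the p16Ink4a exon was 57.5% G and C with 7 CpG, and that of Cdkn2b 52% with 10, against a median of 4 over all windows. Cdkn1b held 25 CpG at 66.5% G and C.

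Motifs were sought on both strands as exact letters. These were the GC box GGGCGG (in 24.6% of all windows), the E2F sites TTTCGCGC (0.204%), TTTGGCGC (0.35%) and TTTCCCGC (0.691%), the E-box CACGTG (4.34%) and the CCAAT box CCAAT (28.4%). The cAMP response element TGACGTCA (0.828%), the retinoic acid receptor half-site AGGTCA (11.4%), the Foxo site GTAAACA (2.58%) and the TATA box TATAAA (9.14%) were also sought. The p19Arf window held 1 match to TTTCCCGC, the p16Ink4a window 1 to AGGTCA, the Cdkn1b window 1 each to the GC box and the CCAAT box, and the Cdkn2b window none. No 2 of these matches overlap. The windows of Cdkn2c, Cdkn2d and Mtap run into annotated exons of those genes and are not printed.

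Levels are in FPKM, fragments divided by gene length in kilobases and by library size, so they can be set side by side between genes, but only roughly. The lengths are unions of the exons of all transcripts of a gene. That of Cdkn2a counts both first exons, while each transcript has only its own, which lowers the FPKM of Cdkn2a by an amount not estimated here. Fold changes are differences of log2(FPKM + 1), which understate the change of genes near or below 1 FPKM such as Cdkn2b and Cdkn2c. A gene is said to have risen, fallen or been called where limma, fitted over all 18 libraries, gave a Benjamini-Hochberg adjusted p below 0.05 over the 17200 genes. A library held between 10432590 and 33311220 reads on genes, and they were fewest in Ctrlv2 at day 8 (group mean 12502136, against 29917985 at day 0). For a gene of 1 kb, 3 reads amount to 0.093 to 0.282 FPKM, depending on the library. Of the stem cell markers, Nanog, Pou5f1, Zfp42, Esrrb, Tdgf1 and Dppa5a summed to between 3715.2 and 4742.3 FPKM per library at day 0. At day 8 the sum was 77.4 to 103.0 in Ctrlv2, 591.0 to 800.0 in Arf-B and 485.0 to 813.0 in Arf-C. Dppa5a made up most of the sum at both days. Among markers of foregut and pancreatic cells, Prox1 and Sox9 rose in all 3 lines, and Pdx1 and Onecut1 did not pass the filter on low values.

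More of the 6 genes were called by day than between lines. In Ctrlv2, Cdkn2a, Cdkn2b and Cdkn2c rose by day 8 and Cdkn1b fell, 4 of 6 genes called where 68.3% of all genes tested were. In Arf-B and in Arf-C the same 4 changed that way and Mtap rose as well, 5 of 6 in each, against 66.7% and 66.6% of all genes. Cdkn2d was called in no line by day. These shares lie near those of all genes. Between lines fewer moved: 2 of 6 in Arf-B against Ctrlv2 at day 0 (39% of all genes) and 2 of 6 in Arf-C (42.8%), then 2 of 6 in Arf-B (33.2%) and 1 of 6 in Arf-C (33.6%) at day 8. The Arf lines were both compared with the same Ctrlv2 libraries, so their values are given side by side and are not separate evidence.

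**Figure D1:**
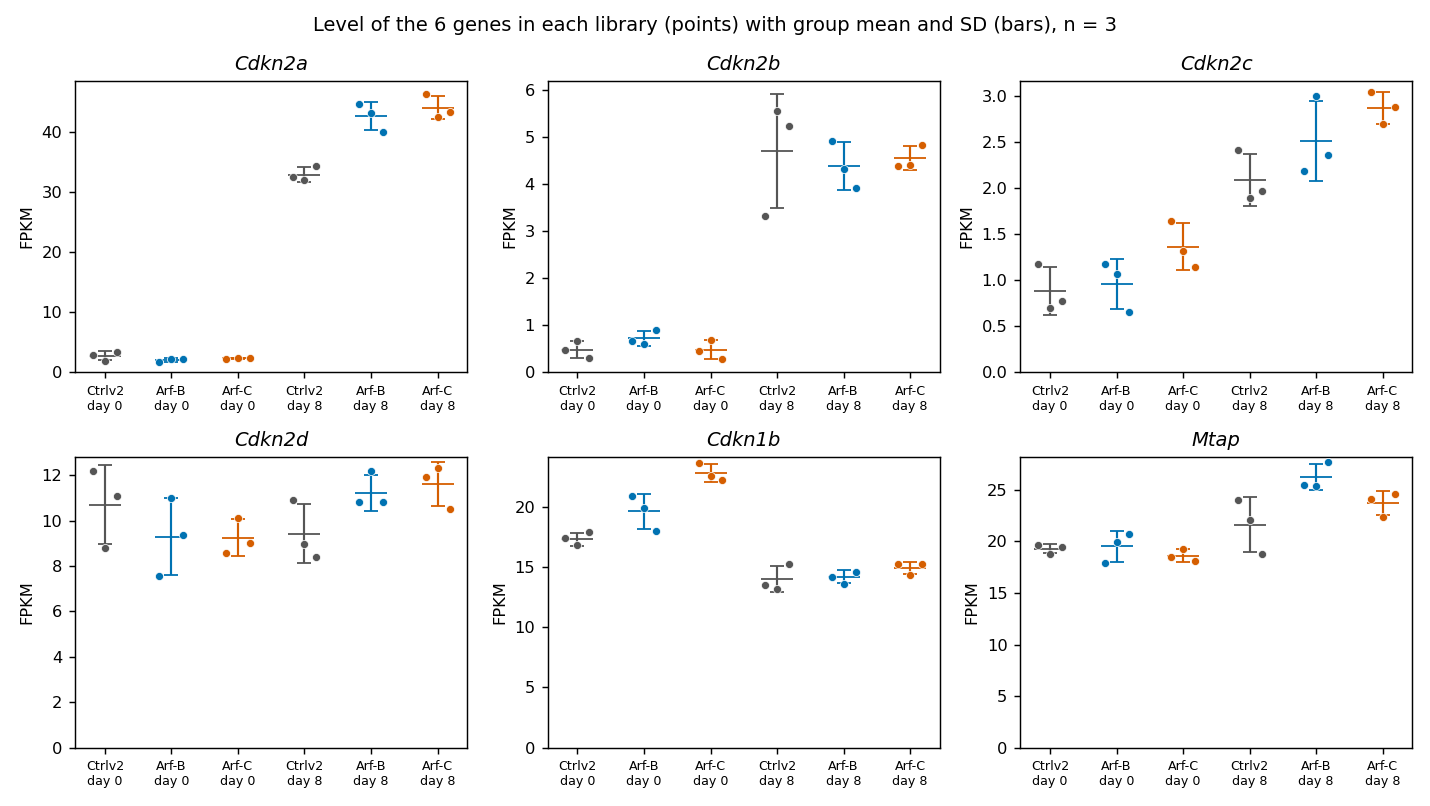
Level of each of the 6 genes in FPKM (vertical axis, starting at 0) in the 18 libraries, grouped by line and day. Points are libraries and bars the group mean and SD (n = 3), with Ctrlv2 in grey, Arf-B in blue and Arf-C in orange; the day 8 libraries of Cdkn2a, at 32 to 46.3, lie far above all day 0 libraries, at 1.67 to 3.36.

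Cdkn2a was scarce in the stem cells and the most abundant Ink4 gene after differentiation. In Ctrlv2 its level was 2.92, 1.89 and 3.36 FPKM in the libraries of day 0 and 32.5, 32 and 34.3 at day 8. Arf-B libraries read 1.67, 2.14 and 2.14 at day 0 and 44.7, 43.2 and 40.1 at day 8. Arf-C libraries read 2.18, 2.31 and 2.37, then 46.3, 42.6 and 43.3. In each line every day 8 library lay above every day 0 library, and at day 8 every Arf library lay above every Ctrlv2 library. These values rest on 55 to 127 reads per library at day 0 and 398 to 1270 at day 8, and no library was without Cdkn2a reads.

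By the fit Cdkn2a rose by 3.21 on the log2 scale in Ctrlv2 (95% interval 2.97 to 3.45, adjusted p = 5.62e-13), 3.87 in Arf-B (3.64 to 4.11, adjusted p = 1.1e-13) and 3.78 in Arf-C (3.54 to 4.01, adjusted p = 1.43e-13). The group means differed 12.1-fold, 21.5-fold and 19.3-fold. The rise was larger than in Ctrlv2 by 0.66 in Arf-B (SE 0.158, adjusted p = 0.00428) and by 0.57 in Arf-C (SE 0.158, adjusted p = 0.00981), tested as a difference of differences. It was called without each library in turn (adjusted p of at most 0.0135 for Arf-B and 0.0258 for Arf-C). Thinned at random to the depth of the smallest library, the reads no longer gave the call (0.61, adjusted p = 0.0525, and 0.48, adjusted p = 0.114). In these 2 comparisons of day responses 33.5% and 38.3% of all genes were called, and Cdkn2a was the one member called in Arf-B, and in Arf-C Cdkn1b was called too.

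At day 8 Cdkn2a was higher in Arf-B by 0.36 (95% interval 0.13 to 0.60, adjusted p = 0.0202) and in Arf-C by 0.41 (0.17 to 0.65, adjusted p = 0.0101), 1.30-fold and 1.34-fold by group means. The Arf-B call was lost without Ctrlv2 replicate 2 (adjusted p = 0.0612), Arf-B replicate 1 (0.0689) or replicate 2 (0.0561) and with a pseudocount of 0.1 (0.0656). With thinned reads neither line was called (adjusted p = 0.183 and 0.107). Among the day 0 libraries Cdkn2a was lower in Arf-B than in Ctrlv2 (log2 -0.30, adjusted p = 0.0424), with ranges that overlap. That call was lost without Ctrlv2 replicate 1 (0.14) or 3 (0.229) and without Arf-B replicate 1 (0.175) or 2 (0.0529). Arf-C was not called at day 0 (log2 -0.16, adjusted p = 0.278), except without Ctrlv2 replicate 2 (-0.33, adjusted p = 0.00339). The labels do not say whether the Arf lines were meant to have more or less of Cdkn2a, so these levels do not check the line names.

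The cells of the lines also differed in their markers at day 8. The summed stem cell markers were higher in both Arf lines, as given above, with 6 of 6 called in Arf-B and 5 of 6 in Arf-C. The counts of this paragraph at day 8 stand beside 33.2% and 33.6% of all genes called in Arf-B and Arf-C against Ctrlv2. The 5 parietal endoderm markers summed to 325.0 to 438.0 FPKM in Ctrlv2, against 93.0 to 96.1 in Arf-B and 94.5 to 105.0 in Arf-C, and all 4 tested of them (Lama1, Lamb1, Sparc and Col4a1) were lower in both. The 5 mesenchyme markers summed to 18.5 to 26.8 in Ctrlv2, 5.56 to 7.35 in Arf-B and 5.99 to 6.32 in Arf-C. Most of the Ctrlv2 sum was Acta2 (15.7 ± 4.53 FPKM, SD, n = 3), which was lower in both Arf lines, as were Col1a1 and Col1a2. Thy1 of the same list was higher in both (log2 0.67 and 0.73), and Pdgfra was not called (-0.17 and -0.16, adjusted p = 0.125 and 0.127). Definitive endoderm markers summed to 9.87 to 13.2, 7.04 to 8.02 and 8.23 to 9.86. At day 0 the parietal endoderm sums were already lower in the Arf lines. They were 124.0 to 143.0 FPKM in Ctrlv2, 44.4 to 54.5 in Arf-B and 45.5 to 50.6 in Arf-C. So were the mesenchyme sums, at 15.0 to 16.9, 2.6 to 3.23 and 2.15 to 2.64, with Thy1 the only marker called, as lower. Acta2 was at 0 in both Arf lines at day 0. No marker of these lists was at 0 in all 3 libraries of a day 8 group. The part of these differences in the day 8 values of the 6 genes was not tested, and in bulk RNA fewer cells that express a gene and less RNA per cell cannot be told apart.

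**Figure D2:**
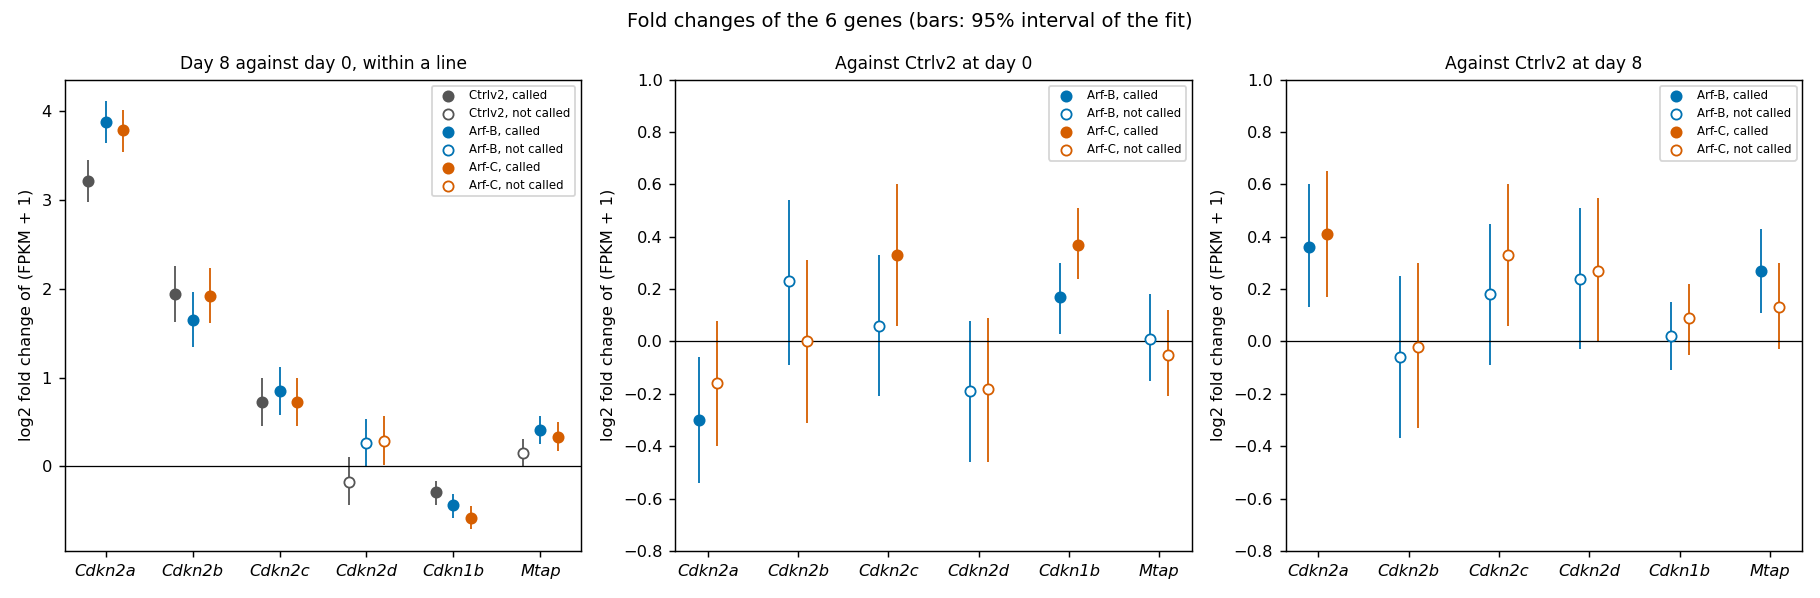
Log2 fold changes of (FPKM + 1) of the 6 genes by day within each line (left), and of the Arf lines against Ctrlv2 at day 0 (middle) and day 8 (right), with bars for the 95% interval of the fit and filled points where the adjusted p was below 0.05. The vertical scale of the left panel is wider; Cdkn2a stands at 3.21 to 3.87 there and between -0.30 and 0.41 against Ctrlv2.

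Cdkn2b, which encodes p15Ink4b and is known as a target of TGF-beta signalling, rose from a lower base. Ctrlv2 libraries read 0.468, 0.656 and 0.29 FPKM at day 0 and 3.31, 5.55 and 5.23 at day 8. In Arf-B they read 0.66, 0.601 and 0.888, then 4.92, 4.33 and 3.91, and in Arf-C 0.444, 0.691 and 0.286, then 4.39, 4.41 and 4.84. Every day 8 library lay above every day 0 library, and the lines overlapped at both days. The day 0 values rest on only 10 to 29 reads per library. The rise was 1.94 (adjusted p = 6.88e-09), 1.65 (adjusted p = 5.6e-08) and 1.92 (adjusted p = 9.42e-09) on the log2 scale, or 9.97-fold, 6.13-fold and 9.61-fold by group means. No comparison with Ctrlv2 was called, and the 95% intervals at day 8 ran from -0.37 to 0.25 in Arf-B and from -0.33 to 0.30 in Arf-C. The day response of Arf-B was -0.29 relative to Ctrlv2 (adjusted p = 0.317), and it was called without Ctrlv2 replicate 1 of day 8 (-0.48, adjusted p = 0.0462), the library at 3.31.

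Mtap, on the other side of Cdkn2a, was expressed at every stage and changed little. Its libraries read 19.6, 18.8 and 19.4 FPKM in Ctrlv2 at day 0 and 24.0, 22.1 and 18.8 at day 8. Arf-B went from 17.9, 19.9 and 20.7 to 25.5, 25.4 and 27.7, and Arf-C from 18.5, 19.3 and 18.1 to 24.1, 22.4 and 24.6. The days overlapped in Ctrlv2 through replicate 3 of day 8 and were separate in both Arf lines. Mtap rose by 0.41 in Arf-B (SE 0.0766, adjusted p = 0.000188) and by 0.33 in Arf-C (adjusted p = 0.00119). In Ctrlv2 the difference was 0.15 (adjusted p = 0.0909), and it was called without replicate 3 of day 8 (0.25, adjusted p = 0.00545). The day response was not called as different from that of Ctrlv2 in Arf-B (0.26, adjusted p = 0.0808) or Arf-C (0.18, adjusted p = 0.21). The Arf-B difference was called without Ctrlv2 replicate 1 of day 8 (0.33, adjusted p = 0.0224), with scaling to the same sum (0.35, adjusted p = 0.0214) and with voom on recovered reads (0.36, adjusted p = 0.02). At day 8 Mtap was higher in Arf-B than in Ctrlv2 (26.2 ± 1.27 against 21.6 ± 2.67, SD, n = 3; log2 0.27, adjusted p = 0.0124). The call did not hold without Ctrlv2 replicate 3 (0.18, adjusted p = 0.0679) or Arf-B replicate 3 (0.23, adjusted p = 0.0581). Arf-C was not called (0.13, adjusted p = 0.201), but it was without Ctrlv2 replicate 1 (0.21, adjusted p = 0.0497) and with scaling to the same sum (0.22, adjusted p = 0.0353).

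Beyond these genes the surroundings of Cdkn2a were largely silent. Of 69 other genes of the table that start within 1 Mb of it, 42 had no reads in any library, 13 of 18 interferon genes (symbols starting with Ifn) among them, and 8 passed the filter. Klhl9, which encodes an adaptor of a Cul3 ubiquitin ligase, rose in every line, by 0.76, 0.88 and 0.66 in Ctrlv2, Arf-B and Arf-C, from group means of 7.72 to 9.5 FPKM to 13.8 to 17.1. Hacd4, for an enzyme of long-chain fatty acid elongation, rose by 0.87, 0.79 and 0.80 to means of 1.46 to 1.54. The pseudogene Mrpl48-ps and the gene model AL805899.1 were called in no line by day. Gm26490 was called, as lower, in Ctrlv2 (limma, adjusted p = 0.0495). That call rests on 8 to 12 reads per library at day 0 and 1 to 3 at day 8. Zfp352 was called as higher in Ctrlv2 and Arf-B. It passed the filter only through day 8 libraries (0.538 and 0.521 FPKM in Ctrlv2, 0.505 in Arf-B). The filter thus favoured a rise of Zfp352, and its calls cannot be read as support for one. Within the window Cdkn2a and Cdkn2b, side by side, had the 2 largest day changes of log2(FPKM + 1) among the tested genes in all 3 lines. That ranking depends on the scale, which understates Zfp352. Its mean went from 0.0499 to 0.457 FPKM in Ctrlv2 (9.16-fold, against 9.97-fold for Cdkn2b). In Arf-B and Arf-C it went from 0 to 0.383 and 0.177.

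**Figure D3:**
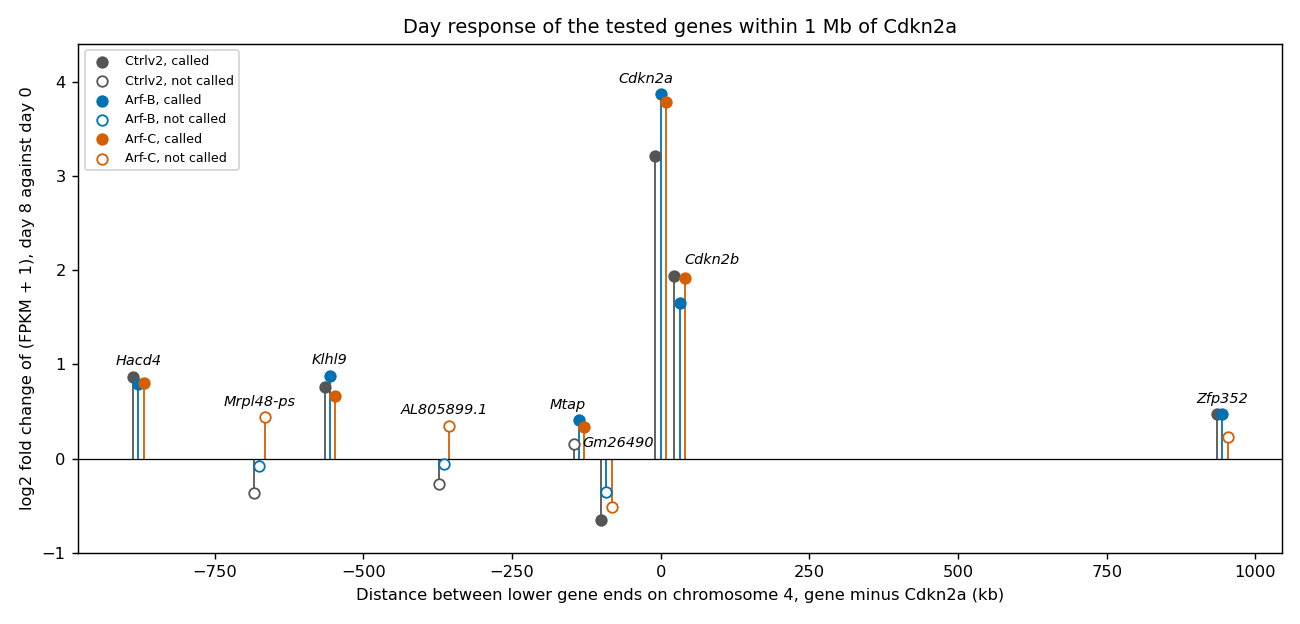
Day response (log2 fold change of FPKM + 1, day 8 against day 0) of Cdkn2a and the 8 tested genes within 1 Mb, placed by the distance in kb between their lower gene ends and that of Cdkn2a, with the lines drawn slightly apart. Filled points were called; Cdkn2a (3.21 to 3.87) and Cdkn2b (1.65 to 1.94) exceed all others, the next being Klhl9 and Hacd4 (0.66 to 0.88).

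Cdkn2c, which encodes p18Ink4c, was low and rose in all lines. Ctrlv2 libraries read 1.17, 0.694 and 0.773 FPKM at day 0 and 2.41, 1.89 and 1.97 at day 8. Arf-B went from 1.17, 1.06 and 0.647 to 2.18, 3.0 and 2.36, and Arf-C from 1.64, 1.32 and 1.14 to 3.04, 2.7 and 2.88. Each line had its day 8 libraries above its day 0 libraries, and Arf-C had the highest mean at both days. The rise was 0.72 (adjusted p = 9.85e-05), 0.85 (adjusted p = 2.11e-05) and 0.72 (adjusted p = 0.000115). Arf-C was above Ctrlv2 at day 0 by the test (0.33, adjusted p = 0.0448), with ranges that touch (lowest Arf-C library 1.14, highest Ctrlv2 library 1.17). Leaving out Ctrlv2 replicate 2 or 3, or Arf-C replicate 1 or 2, ended that call (adjusted p = 0.154, 0.129, 0.177 and 0.0746). At day 8 the Arf-C difference was again 0.33 and was not called (adjusted p = 0.059), while leaving out Ctrlv2 replicate 1 made it a call (0.40, adjusted p = 0.0418). It was also called with scaling to the same sum (0.39, adjusted p = 0.0291), with the replicate block (adjusted p = 0.0399) and in a fit of only the groups compared (adjusted p = 0.0426). Arf-B was called at neither day (0.06, adjusted p = 0.779, and 0.18, adjusted p = 0.305).

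Cdkn2d, which encodes p19Ink4d and is a different protein from p19Arf, was the main Ink4 transcript of the stem cells. Its libraries read 12.2, 8.81 and 11.1 FPKM in Ctrlv2 at day 0 and 10.9, 8.97 and 8.38 at day 8. Arf-B read 7.56, 11 and 9.35, then 10.8, 12.2 and 10.8, and Arf-C 8.58, 10.1 and 9.03, then 11.9, 12.3 and 10.5. Every line overlapped with every other at day 0, and only Arf-C had separate days. The day difference was -0.17 in Ctrlv2 (adjusted p = 0.265), 0.26 in Arf-B (adjusted p = 0.0832) and 0.29 in Arf-C (adjusted p = 0.0546). The last 2 lie close to the threshold. Arf-B passed it without its replicate 2 of day 0 (0.38, adjusted p = 0.0212), and Arf-C without its replicate 2 of day 0 (0.35, adjusted p = 0.0429) or 3 of day 8 (0.36, adjusted p = 0.0413). Relative to Ctrlv2 the day response was 0.43 in Arf-B (adjusted p = 0.0822) and 0.46 in Arf-C (adjusted p = 0.0572), neither of them called. The Arf-B difference was called without Ctrlv2 replicate 2 of day 0 (adjusted p = 0.0228), Ctrlv2 replicate 1 of day 8 (adjusted p = 0.0395) or Arf-B replicate 2 of day 0 (adjusted p = 0.0318). The Arf-C difference was called without those Ctrlv2 libraries (adjusted p = 0.0153 and 0.0268), Arf-C replicate 2 of day 0 (adjusted p = 0.0457) or Arf-C replicate 3 of day 8 (adjusted p = 0.0474). Both were also called with scaling to the same sum (adjusted p = 0.0286 and 0.0256) and with voom on recovered reads (adjusted p = 0.0432 and 0.039). At day 8 the Arf lines were 0.24 (adjusted p = 0.172) and 0.27 (adjusted p = 0.113) above Ctrlv2, the latter called without Ctrlv2 replicate 1 (0.37, adjusted p = 0.0498). With scaling to the same sum both were called (0.35, adjusted p = 0.0298, and 0.36, adjusted p = 0.0287).

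Summed over Cdkn2a, Cdkn2b, Cdkn2c and Cdkn2d, the FPKM of the Ink4 genes went from 14.8 ± 2.44 to 49.1 ± 0.748 in Ctrlv2, from 13.0 ± 1.85 to 60.8 ± 3.17 in Arf-B and from 13.4 ± 0.934 to 63.0 ± 2.25 in Arf-C (SD, n = 3). At day 0 Cdkn2d made up 72.5%, 71.5% and 69.1% of that sum in the 3 lines and Cdkn2a 18.3%, 15.4% and 17.1%. At day 8 Cdkn2a made up 67.0%, 70.2% and 69.9% and Cdkn2d 19.2%, 18.5% and 18.3%. The leading Ink4 gene thus changed from Cdkn2d to Cdkn2a in every line, with the reservation that the reads of Cdkn2a include those of p19Arf, which is no Ink4 protein. The sums and shares also rest on a Cdkn2a length that counts both first exons.

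Cdkn1b, which encodes p27Kip1, went the other way. Its libraries read 17.4, 16.8 and 17.9 FPKM in Ctrlv2 at day 0 and 13.5, 13.2 and 15.2 at day 8. Arf-B fell from 20.9, 19.9 and 18 to 14.2, 13.6 and 14.6, and Arf-C from 23.6, 22.5 and 22.2 to 15.2, 14.3 and 15.2. At day 0 the lines stood in the order Arf-C, Arf-B, Ctrlv2 with no overlap, Arf-B and Ctrlv2 by a narrow gap (18 against 17.9), and at day 8 they overlapped. The fall was 0.29 in Ctrlv2 (log2 -0.29, SE 0.0626, adjusted p = 0.000582), and the log2 change was -0.44 in Arf-B (adjusted p = 1.13e-05) and -0.58 in Arf-C (adjusted p = 5.44e-07). With libraries scaled to the same sum of FPKM the Ctrlv2 call was lost (-0.16, adjusted p = 0.0696).

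At day 0 Cdkn1b was higher than in Ctrlv2 by 0.37 in Arf-C (95% interval 0.24 to 0.51, adjusted p = 0.00018), a call that held without each library in turn. In Arf-B it was higher by 0.17 (adjusted p = 0.045). The latter call ended without any one of Ctrlv2 replicates 1, 2 and 3 (adjusted p = 0.0857, 0.125 and 0.0591) or Arf-B replicates 1 and 2 (0.19 and 0.116). At day 8 neither line was called (0.02, adjusted p = 0.854, and 0.09, adjusted p = 0.316). The day response of Arf-C was lower than that of Ctrlv2 (-0.29, SE 0.0886, adjusted p = 0.0177), while with scaling to the same sum or with voom it was not called (-0.23 in both, adjusted p = 0.107 and 0.116). In Arf-B the difference was -0.15 (adjusted p = 0.219).

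Lockd, a long noncoding RNA gene that starts 3.58 kb beyond the end of Cdkn1b (chr6:134929092-134956798, ENSMUSG00000098318), was picked after its values were seen. It was low throughout, at 1.38, 1.51 and 1.38 FPKM in Ctrlv2 at day 0 and 0.426, 0.163 and 0.0409 at day 8. In Arf-B it read 2.3, 2.24 and 2.08, then 0.271, 0.214 and 0.367, and in Arf-C 2.57, 2.31 and 2.51, then 0.303, 0.172 and 0.272. Its day 0 libraries stood in the same order of lines as those of Cdkn1b, without overlap, Arf-C and Arf-B by a narrow gap (2.31 against 2.3). Between these 2 lines Lockd was not called at day 0 (log2 -0.11 for Arf-B against Arf-C, adjusted p = 0.789). It fell in all lines (log2 -1.02, -1.32 and -1.47) and was higher at day 0 in Arf-B (0.40, adjusted p = 0.00387) and Arf-C (0.51, adjusted p = 0.000562). Its day response was lower than in Ctrlv2 in Arf-C (-0.46, adjusted p = 0.0164) and not called as different in Arf-B (-0.31, adjusted p = 0.101).

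**Figure D4:**
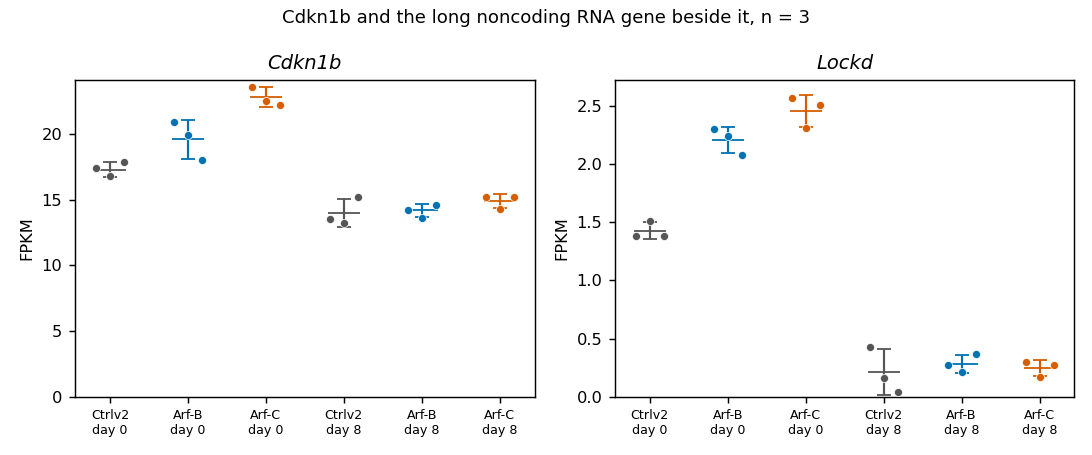
Level in FPKM (vertical axes, starting at 0) of Cdkn1b and of Lockd, the long noncoding RNA gene downstream of it, in the 18 libraries. Points are libraries and bars the group mean and SD (n = 3). In both panels the day 0 libraries rank Arf-C, Arf-B, Ctrlv2 and all day 8 libraries lie lower. The narrowest gaps at day 0 are Arf-B to Ctrlv2 for Cdkn1b (18 against 17.9) and Arf-C to Arf-B for Lockd (2.31 against 2.3).

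Between the Arf lines none of the 6 genes was called at either day, where limma called 59 of 17200 genes at day 0 (0.343%) and 10 at day 8 (0.0581%). At an unadjusted p below 0.05 there were 1894 and 912 genes, with Cdkn1b (log2 -0.21 for Arf-B against Arf-C, adjusted p = 0.198) and Cdkn2c (-0.28, adjusted p = 0.44) among those of day 0 and no member among those of day 8. The 95% intervals at day 8 were -0.28 to 0.19 for Cdkn2a, -0.36 to 0.27 for Cdkn2b, -0.42 to 0.12 for Cdkn2c, -0.31 to 0.24 for Cdkn2d, -0.20 to 0.07 for Cdkn1b and -0.03 to 0.30 for Mtap. A missed threshold does not show that the lines had equal levels.

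The other inhibitors measured did not share one course. Cdkn1a (p21) and Cdkn1c (p57), both of the family of Cdkn1b, rose by day in every line, in Ctrlv2 from 10.7 ± 2.0 to 38.7 ± 3.08 FPKM and from 10.7 ± 1.38 to 30.4 ± 1.37. Both were lower in the Arf lines at day 8, by 0.52 and 0.61 for Cdkn1a (26.6 ± 1.67 and 25.1 ± 3.37 FPKM; log2 -0.52 and -0.61) and by 0.41 and 0.60 for Cdkn1c (log2 -0.41 and -0.60), whereas Cdkn2a was higher there. Cdkn3, for a phosphatase of cyclin-dependent kinases, fell in Ctrlv2 (log2 -0.47) and had higher values in both Arf lines by day 8 (0.57 and 0.60).

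The genes for Cdk4, Cdk6 and the D cyclins were all called between each Arf line and Ctrlv2 at day 0. Of these 5 genes 3 were higher and 2 lower, where 39% and 42.8% of all genes were called. By day, 1 of the 5 genes for Cdk4, Cdk6 and the D cyclins rose and 2 fell in each line (median log2 -0.11, -0.06 and 0.02 in Ctrlv2, Arf-B and Arf-C, where the medians of all genes were -0.01, -0.02 and -0.02). For this and the other lists, the counts by day stand beside 68.3%, 66.7% and 66.6% of all genes called. Cdk4 was abundant, with 142.0 ± 2.99 FPKM in Ctrlv2 before and 150.0 ± 5.34 after differentiation, and the Arf lines had more of it at day 0 (0.34 and 0.37). Ccnd2 rose in all lines, in Ctrlv2 from 0.254 ± 0.0684 to 2.42 ± 0.46 FPKM and in Arf-B from 0.0452 ± 0.0115 to 4.02 ± 0.181. Ccnd3 fell from 37.3 ± 1.62 to 9.29 ± 1.09 FPKM in Ctrlv2 (log2 -1.90) and was already low in the Arf lines at day 0 (11.3 ± 1.41 and 11.1 ± 0.163). Ccnd1 was more abundant in the Arf lines at day 0, with 12.4 ± 2.83 and 8.42 ± 0.406 against 2.64 ± 0.267 FPKM (1.87 and 1.37). At day 8 Ccnd1, Ccnd2, Ccnd3 and Cdk6 were higher in both Arf lines, 4 of 5 genes (median log2 0.50 and 0.48, all genes 0.01). Of all genes 33.2% and 33.6% were called there.

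Of the 5 kinase and cyclin genes on which p27 acts, Ccne1, Ccna2, Cdk1 and Cdk2 fell in every line (median log2 -0.75, -0.82 and -0.83), together with Cdkn1b. Ccne2 rose in Ctrlv2 (0.54). Cdk2 fell further in the Arf lines, from 32.1 ± 1.68 to 9.47 ± 0.195 FPKM in Arf-B against 25.2 ± 1.14 to 16.3 ± 1.03 in Ctrlv2 (difference of day responses -1.06, and -1.12 for Arf-C). It was higher at day 0 (0.33 and 0.39) and lower at day 8 (-0.72 and -0.73) in the Arf lines. Of 5 proliferation markers Pcna, Ccnb1, Top2a and Mcm2 fell in all lines, and Mki67 was called as higher by day in Ctrlv2 (0.70). Its Ctrlv2 libraries were scattered at day 0 (7.01, 12.7 and 22.9 FPKM) and overlapped with those of day 8 (20.2 to 22.5). The highest of day 0 lay above all of day 8.

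Genes for the turnover of p27 protein moved in a mixed way. Of 8, Cul1, the scaffold of the SCF ubiquitin ligase, rose in each line (0.92 in Ctrlv2, 0.30 in Arf-B), and 5, 2 and 4 fell in Ctrlv2, Arf-B and Arf-C, Ubac1 and Cops5 in all 3 and Cks1b in Arf-C with a sign that turns under scaling to equal sums. Skp2, the subunit that recognises p27, was higher in the Arf lines at day 0 (0.26 and 0.19) and lower in Arf-C at day 8 (-0.25). Of 5 genes for the Foxo factors and Akt kinases that act on Cdkn1b transcription, Akt1 rose most (1.41 in Ctrlv2, 1.60 in Arf-B). At day 0, 4 of the 5 were lower in each Arf line, Akt1 (-0.75 and -0.62), Akt2, Foxo3 and Foxo1. Of all genes 39% and 42.8% were called there.

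Of 19 genes listed for control of Cdkn2a, 8 rose in each line and 7, 8 and 9 fell in Ctrlv2, Arf-B and Arf-C, with medians of 0.07, -0.08 and -0.10 on the log2 scale. Of all genes 68.3%, 66.7% and 66.6% were called, with medians of -0.01, -0.02 and -0.02. Among Polycomb genes, whose products hold the locus silent in many cell types, Eed fell from 112.0 ± 6.23 to 30.6 ± 1.95 FPKM in Ctrlv2 (log2 -1.85) and Ezh2 from 34.2 ± 4.26 to 16.7 ± 0.778 (-0.98), while Bmi1 rose from 4.8 ± 1.0 to 14.5 ± 0.834 (1.43). Of the T-box repressors Tbx2 rose (3.05) and Tbx3 fell (-1.85). Kdm6b, for a demethylase of the Polycomb mark, rose in all lines, by more in Arf-B and Arf-C (difference 0.65 and 0.75). Its means in Ctrlv2, Arf-B and Arf-C were 9.67, 5.83 and 5.65 FPKM at day 0 and 16.8, 16.8 and 17.5 at day 8. Zbtb7a, for a repressor of p19Arf, fell in every line, in Ctrlv2 from 13.0 ± 0.201 to 2.72 ± 0.349 FPKM. At day 0 it was lower in Arf-B and Arf-C than in Ctrlv2 (7.44 ± 0.546 and 8.14 ± 0.664 FPKM). At day 8 Zbtb7a was higher in the Arf lines (0.30 and 0.36), and Id1, Jund, Myc and Ets2 were lower.

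Of 9 genes around Cdkn2b and TGF-beta signalling 5 rose in Ctrlv2 and 6 in each Arf line, and 3 fell in each (median log2 0.60, 0.63 and 0.59). Smad3, for a signal carrier of the receptors, rose from 1.43 ± 0.124 to 12.9 ± 1.31 FPKM in Ctrlv2 (2.52) and by 2.02 in Arf-B. Smad2, Smad4, Tgfbr1 and Tgfb2 rose as well, and Tgfb1 fell (-1.45 in Ctrlv2). Tgfbr2, for the receptor that binds the ligand first, stood apart between lines. It was at 2.15 ± 0.0148 FPKM in Ctrlv2 at day 0 against 0.125 ± 0.0174 in Arf-B and 0.122 ± 0.0329 in Arf-C, fell in Ctrlv2 (-0.24) and rose in Arf-B (0.91) and Arf-C. Cdkn2b itself was called between no lines.

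The listed partners of Mtap fell, with 1 exception, while Mtap did not. Of 10 genes of methionine salvage, S-adenosylmethionine and polyamine synthesis, 9 fell in Ctrlv2 and 10 in each Arf line (median log2 -0.97, -0.98 and -0.82), the exception being Amd1 in Ctrlv2 (-0.03, not called). Odc1, the first enzyme of polyamine synthesis, fell from 211 ± 6.21 to 57.4 ± 0.892 FPKM in Ctrlv2, and Srm (spermidine synthase), from 115.0 ± 7.17 to 38.6 ± 5.93. Adi1, Apip, Enoph1 and Mri1, the enzymes that follow Mtap in the salvage pathway, fell in every line. Prmt5, for the arginine methyltransferase that the substrate of Mtap inhibits, fell by 0.99 in Ctrlv2 (log2 -0.99) and 1.04 in Arf-B (log2 -1.04).

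For each gene the 3 genes most like it over the 18 libraries were found by the root mean square difference of log2(FPKM + 1), each centred on its own mean, among 8791 tested genes that reach 5 FPKM on average in some group. For Cdkn2a they were Hoxc4 (0.143), Arl4c (0.189) and Baiap2l1 (0.195), against a spread of Cdkn2a itself of 1.82. Hoxc4 rose by 3.05, 3.75 and 3.61 in Ctrlv2, Arf-B and Arf-C. For Cdkn2b they were Nudt11 (0.165), Rhobtb3 and Spg20, and for Cdkn2c Epb41l5 (0.137), Rab11fip3 and Pgghg. For Cdkn2d they were Tmem110 (0.117), Tecr and Oaz1, at a spread of the gene of only 0.186. Cdkn1b was matched most closely by Taf3 (0.064), which fell by 0.30, 0.45 and 0.58 (log2 -0.30, -0.45 and -0.58), then Dnaja3 and March5, and Mtap by Tubg1 (0.0773), Dcun1d2 and Mydgf. These are descriptions over libraries that fall into 2 days, with no test.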

How the data were processed

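RNA was measured in 18 libraries, and the values used are the FPKM that the authors deposited for 54532 genes, with the gene lengths of the same table. Per the submitters' processing notes HISAT2, featureCounts, DESeq2 and the mm10 assembly were used, with no versions or settings given in the sources used here. The gene length column is the length the deposited FPKM were divided by: each value times that length is a whole multiple of 1 step per library, within 0.001 reads, for all 413772 values above 0, which returns reads per gene.

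Groups were taken from the sample titles. Tests used log2(FPKM + 1) of the 17200 genes that reached 0.5 FPKM in 3 or more libraries. A limma 3.58.1 model in R 4.3.3 (statmod 1.5.0) had 1 coefficient per group and empirical Bayes moderation with trend and robust settings, was tested on simulated data, and was used for all 11 comparisons. P-values were two-sided and adjusted over all those genes (Benjamini-Hochberg), with a threshold of 0.05. Errors are SD over 3 libraries or the SE and 95% interval of the fit.

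The 6 genes are named throughout. Of each list up to 4 called genes are named, largest change first, with others where a direction is shared by lines, and the 3 genes most like each member follow the measure in the text. The members and lists were chosen with earlier results of these data known. The motifs, promoter windows and junctions were picked after the files were read, and so was Lockd. Promoters are from RefSeq (GRCm38.p6), exons from GENCODE vM21. Python 3.11.15 with numpy 2.4.6, pandas 2.3.3 and matplotlib 3.10.9 served for summaries and figures. Alternatives were another pseudocount (0.1), other filters, other scalings, a replicate block, fits of only the groups compared, voom on the recovered reads and leaving out each library. Thinning the reads to the smallest library was added after the data had been seen.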

Additional observations from a re-analysis of the deposited data

Results flagged for a closer look

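Cdkn2a had a larger day response in Arf-B than in Ctrlv2, by 0.66 on the log2 scale (adjusted p = 0.00428, limma). The same difference was 0.57 in Arf-C (adjusted p = 0.00981). Both are listed because the difference between the lines' responses was itself called, as it was for 33.5% and 38.3% of all genes. In each line it combines a day 0 value that is not above Ctrlv2 (log2 -0.30 and -0.16) with a day 8 value above it (0.36 and 0.41). The 2 differences share the Ctrlv2 libraries, and neither was called with reads thinned to the smallest library.

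Cdkn1b had a day response in Arf-C that differed from that of Ctrlv2 by -0.29 (adjusted p = 0.0177, limma), where 38.3% of all genes were called. The Cdkn1b difference came with a day 0 level 0.37 above Ctrlv2 and a day 8 level 0.09 above it, the latter not called. The difference was not called with scaling to the same sum (-0.23, adjusted p = 0.107) or with voom on recovered reads (-0.23, adjusted p = 0.116).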

How the results depend on the processing

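Of 1062 values of single genes under an alternative, 985 kept their side of the threshold, 38 calls were lost, 39 were gained and no called value changed sign. In 47 of the 985, called under neither setting, the sign differed. The day changes of Cdkn2a, Cdkn2b and Cdkn2c in all 3 lines, and of Mtap and Cdkn1b in both Arf lines, were called under every alternative. For the counts of the 6 genes called, Arf-B against Ctrlv2 at day 0 (2) gave 0 with no filter, 0 with only the groups compared, 0 with thinned reads, 1 with scaling to the same sum and 1 with voom, and 0 to 2 leaving out single libraries. Arf-C against Ctrlv2 at day 0 (2) gave 1 with no filter, 1 with only the groups compared and 1 with thinned reads, and 1 to 2 leaving out libraries. Arf-B against Ctrlv2 at day 8 (2) gave 1 with a pseudocount of 0.1, 1 with only the groups compared, 1 with thinned reads and 3 with scaling to the same sum, and 1 to 2 leaving out libraries. Arf-C against Ctrlv2 at day 8 (1) gave 4 with scaling to the same sum, 2 with the replicate block, 2 with only the groups compared and 0 with thinned reads, and 1 to 4 leaving out libraries. For the day response relative to Ctrlv2, Arf-B (1) gave 3 with scaling to the same sum, 3 with voom and 0 with thinned reads, and 1 to 4 leaving out libraries, and Arf-C (2) gave 1 with thinned reads, 3 with the filter at a mean of 1 FPKM and 2 to 3 leaving out libraries. With scaling to the same sum and with voom the latter stayed at 2, with Cdkn1b lost and Cdkn2d gained. Apart from removed genes, samples or reads the cause was not tested.

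Over all groups, same-numbered libraries did not deviate together more than other pairs (correlations -0.251 to 0.203, median 0.004, against -0.211 to 0.218, median 0.0015). Between Arf-B and Arf-C same-numbered correlations were 0.203, 0.118 and -0.00546 at day 0 and 0.0959, -0.0141 and 0.143 at day 8. Between Ctrlv2 and Arf-C at day 0 they were -0.125, -0.251 and 0.036. Pairing within a day was not tested. With the replicate block the 1 change of a call was Cdkn2c in Arf-C at day 8 (0.33, adjusted p = 0.0399). Scaling to the same sum and voom shifted the median of all genes by day from -0.02 to 0.13 and 0.15 in Arf-B and from -0.02 to 0.11 and 0.15 in Arf-C, and changes are to be read against that shift. With them Cdkn2d rose in both Arf lines (0.47 and 0.47 with the same sum, 0.47 and 0.49 with voom), and Mtap in Ctrlv2 (0.28 and 0.26). The share of calls that were higher moved with the same sum from 49.4% to 62.2% (Arf-B by day), 49.2% to 60.1% (Arf-C by day), 49% to 68.9% (Arf-B against Ctrlv2, day 8), 50% to 63.5% (Arf-C, day 8) and 52.1% to 64.3% (day response of Arf-B). With voom these were 59.7%, 59.4%, 62.4%, 60.9% and 64.1%. Of 368 calls of genes in the pathway lists 325 were also called with the same sum and 334 with voom, and 1 changed sign (Cks1b by day in Arf-C, same sum). Of 137 calls of cell type markers 133 and 124 were also called, and 1 changed sign (Gata6, day response of Arf-B, voom). Between the Arf lines the number of all genes called was 59 at day 0, with 7 to 180 under the alternatives that keep all libraries, and 10 at day 8, with 5 to 26. Cdkn2b rested on 10 to 29 reads per library at day 0, and its calls by day held with thinned reads, while all calls of Cdkn2a between lines, that of Cdkn1b in Arf-B at day 0 and that of Cdkn2c in Arf-C at day 0 were lost.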
